A study of Mus musculus with 9 samples.

Results

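The genes described here are 6 of the 11046 gene symbols in a table of read counts from 3 mouse tumour lines: Egfr and Erbb2 (receptors of the EGF family), Areg and Btc (ligands of that family), Met (the receptor for hepatocyte growth factor) and Ddr2 (a receptor tyrosine kinase for fibrillar collagen). They were taken by gene symbol, and 6 of 6 were in the table and passed the filter on low counts. The lines were 482N1, which the labels call a lung NSCLC line, B16F10-BrM, labelled a BRAF mutant melanoma, and E0771-BrM, labelled a triple negative breast cancer line. BrM stands for brain metastatic, all 3 lines carry the genotype label WT, and none was treated. E0771-BrM was kept in RPMI 1640 with hepes and the other lines in DMEM, so for E0771-BrM line and medium cannot be told apart. Each line is 1 tumour line with 3 libraries (A, B and C). Nothing in the labels ties A, B and C to separate cultures, so SDs and p-values measure the spread between libraries, which may be technical.

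Ligands of the EGF family are made as membrane-bound precursors, which metalloproteases of the ADAM family cut to release the active factor. The released ligand binds Egfr or a related receptor, the receptors pair, and phosphorylated tyrosines recruit adaptors that switch on RAS-ERK signalling. Erbb2 binds no known ligand of its own and acts as a partner of the other receptors. Met signals through many of the same adaptors, and Ddr2 differs from both in being activated slowly, by collagen of the surrounding matrix. In epithelia Egfr, Erbb2 and Met control growth, survival and movement, and Ddr2 is typical of mesenchymal cells.

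The sequences just upstream of 4 of the genes are shown because these are the genes whose counts came to 9 or fewer over all libraries of a line: Areg, Btc and Egfr in B16F10-BrM and Ddr2 in 482N1. They are the 250 bases before the annotated start from RefSeq on build GRCm38.p6, 5′ to 3′ on the gene's own strand, with 6 of 6 genes found there. The windows are chr5:91139349-91139598 on the plus strand for Areg, chr5:91402995-91403244 on the minus strand for Btc, chr11:16751953-16752202 on the plus strand for Egfr and chr1:170088945-170089194 on the minus strand for Ddr2. Capitals mark matches on either strand to 5 motifs, the AP-1 site TGANTCA, the cyclic AMP response element TGACGTCA, the GC box GGGCGG, the E-box CACGTG and the TATA box TATAAA.
Areg: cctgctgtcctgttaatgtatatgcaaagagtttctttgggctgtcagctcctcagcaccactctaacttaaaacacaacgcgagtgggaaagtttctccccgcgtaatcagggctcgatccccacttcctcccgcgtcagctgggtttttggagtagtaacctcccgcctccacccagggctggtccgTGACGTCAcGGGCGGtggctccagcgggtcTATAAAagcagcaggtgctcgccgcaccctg
Btc: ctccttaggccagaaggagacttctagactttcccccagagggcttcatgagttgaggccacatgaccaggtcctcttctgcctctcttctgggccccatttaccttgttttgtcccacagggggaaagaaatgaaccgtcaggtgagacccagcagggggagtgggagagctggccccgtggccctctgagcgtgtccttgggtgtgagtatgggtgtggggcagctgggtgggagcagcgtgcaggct
Egfr: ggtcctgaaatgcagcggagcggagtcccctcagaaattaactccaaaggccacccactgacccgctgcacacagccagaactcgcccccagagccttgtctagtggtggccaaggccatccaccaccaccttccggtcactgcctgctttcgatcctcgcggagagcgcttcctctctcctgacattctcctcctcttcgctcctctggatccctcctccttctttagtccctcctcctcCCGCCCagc
Ddr2: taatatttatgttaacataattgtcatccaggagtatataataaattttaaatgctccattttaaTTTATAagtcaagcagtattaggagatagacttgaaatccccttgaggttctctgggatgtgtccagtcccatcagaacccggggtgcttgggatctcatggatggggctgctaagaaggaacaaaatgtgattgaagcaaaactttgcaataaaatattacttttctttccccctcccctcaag
The Areg window held a cyclic AMP response element 61 to 54 bases before the start, a GC box at 52 to 47 and a TATA box at 31 to 26. The Btc window held none of the 5 motifs, the Egfr window 1 GC box on the opposite strand at 9 to 4 bases, and the Ddr2 window 1 TATA box on the opposite strand at 185 to 180. Of 32851 RefSeq windows of the same length, 1.55% held the cyclic AMP response element, 32.7% a GC box, 12.4% a TATA box, 6.75% an AP-1 site and 6.02% an E-box. The Ddr2 window was AT-rich, with 37.6% G and C and 1 CpG, where the median over all windows was 52.4% and 6. It ends in a run of pyrimidines followed by aag. Whether this annotated start or another one is used in these lines was not tested, so the values describe this window only. Areg, with 57.2% and 15 CpG, and Btc, with 59.6% and 4 CpG, were alike in base content and unlike in CpG. A match describes the letters of a window and is no measured binding site.

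The libraries held 7332390 to 9293348 counts. Of 11037 genes tested, 92.1% differed among the 3 lines (edgeR quasi-likelihood F test, adjusted p below 0.05), so a difference between lines was the rule for any gene. Melanocyte markers (5 of 10 measured, among them Dct and Pmel) summed to 24630 to 25480 normalised CPM per library in B16F10-BrM, 2.77 to 28.1 in 482N1 and 103 to 162 in E0771-BrM. The highest of them in E0771-BrM were Gpnmb (mean 66.0 CPM) and Mitf (35.6), above Dct (27.0) and Pmel (2.3). Lung markers (4 of 12, Ctsh, Foxa1, Etv5 and Abca3) summed to 209 to 245 in 482N1, 15.5 to 22.6 in B16F10-BrM and 34.4 to 38.1 in E0771-BrM. Mammary markers (4 of 12, Gata3, Foxa1, Krt8 and Krt18) summed to 176 to 212 in E0771-BrM and to 7332 to 7952 in 482N1, so they did not set the breast line apart, and in B16F10-BrM the sum was at most 0.878 with Krt18 at 0. Epithelial markers (3 of 12) summed to 7293 to 7911 in 482N1, 216 to 250 in E0771-BrM and at most 0.233 in B16F10-BrM. Krt8 and Krt18 made up most of the 482N1 sum, while Pkp3 was highest in E0771-BrM (mean 42.1 CPM, against 2.73 in 482N1). Mesenchymal markers (8 of 12) reached 7156 to 8756, 3571 to 3747 and 1502 to 1616 in 482N1, E0771-BrM and B16F10-BrM. Most of that sum was Vim (mean 7290, 3459 and 1465 CPM), and S100a4 had the same order. Zeb1 (58.4, 54.7 and 0.0694 CPM) was lowest in B16F10-BrM and not called different between 482N1 and E0771-BrM (adjusted p = 0.405). Twist1 (21.7, 50.8 and 0), Snai2 (8.96, 26.0 and 5.29) and Pdgfrb (0, 2.14 and 0.796) were highest in E0771-BrM. Cdh2 was lowest in E0771-BrM (90.4, 0.536 and 90.9), and Col1a2 was highest in B16F10-BrM (0.0401, 0.125 and 1.56). The sums of myeloid markers (2 of 8) were 24.7 to 34.2, 21.9 to 27.3 and 0.502 to 0.625 in 482N1, E0771-BrM and B16F10-BrM. Of these, Cd14 was highest in 482N1 (27.2, 9 and 0) and Cd68 in E0771-BrM (2.51, 15.8 and 0.57). Endothelial markers (2 of 8) summed to 90.4 to 104, 35.3 to 37.4 and 5.83 to 8.44 in the same lines. Here Flt1 was highest in 482N1 (93.6, 6.17 and 0.0418) and Egfl7 in E0771-BrM (2.89, 30 and 7.51). The defining markers Nkx2-1, Sftpc, Epcam, Cdh1, Tyr and Mlana were not analysed here. The part of these markers in the differences below was not tested, and in bulk RNA fewer cells of a type and less RNA per cell cannot be told apart.

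Libraries A and C of 482N1 and of E0771-BrM stood apart from library B in traces of some transcripts abundant in B16F10-BrM. Dct, a melanocyte enzyme, had 142, 14 and 148 counts in libraries A, B and C of 482N1 and 353, 29 and 263 in E0771-BrM, up to 0.26% of its B16F10-BrM level. Gpnmb did not follow this in E0771-BrM, with 557, 528 and 513 counts, and Syt4 reached 0.42% of its B16F10-BrM level in library A there. At each library's Dct share, Areg, Btc, Egfr and Erbb2 would each hold at most 0.0816 counts in any library of these lines. Met would hold 12.4 of the 1554 counts in library A of E0771-BrM at that share. For Ddr2, which had few counts in 482N1, these shares and the values without libraries A and C are given below.

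Areg encodes amphiregulin, a low-affinity ligand of Egfr. Its counts in libraries A, B and C were 539, 697 and 546 in 482N1, 356, 345 and 449 in E0771-BrM, and 0, 0 and 0 in B16F10-BrM. Every library of 482N1 was above every library of E0771-BrM, and B16F10-BrM had no read at all. The level was 74.2 ± 8.39 normalised CPM in 482N1 (SD, n = 3) and 47.5 ± 7.57 in E0771-BrM, a log2 fold change of -0.64 ± 0.11 (SE, adjusted p = 1.45e-06). Against a floor of 3 counts over a line, Areg was at least 649-fold lower in B16F10-BrM than in 482N1 (adjusted p = 1.28e-30) and at least 414-fold higher in E0771-BrM than in B16F10-BrM (adjusted p = 2.71e-28).

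Btc encodes betacellulin, which binds both Egfr and Erbb4. It had 832, 1047 and 860 counts in 482N1, 16, 29 and 13 in E0771-BrM, and 0, 0 and 0 in B16F10-BrM. The 482N1 libraries were far above the rest, and E0771-BrM held a low level that did not overlap the zeros of B16F10-BrM. The mean was 114 ± 10.3 CPM in 482N1 and 2.38 ± 0.977 in E0771-BrM, a 47.4-fold difference (log2 fold change -5.57 ± 0.16, adjusted p = 3.94e-31). Btc was at least 997-fold lower in B16F10-BrM than in 482N1 (adjusted p = 1.07e-33) and at least 20.9-fold higher in E0771-BrM than in B16F10-BrM (adjusted p = 1.21e-10). Krt18, abundant in 482N1, had 3, 0 and 6 counts in E0771-BrM, and at its share Btc would have at most 0.164 counts there. The source of the 13 to 29 Btc counts was not tested.

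The other ligands of the family in the table were Hbegf and Ereg. Hbegf, which encodes heparin-binding EGF-like growth factor, was the ligand still read in B16F10-BrM, with 60, 60 and 41 counts against 459, 534 and 489 in E0771-BrM and 2713, 2798 and 2301 in 482N1. The libraries of the 3 lines did not overlap, with log2 fold changes of -5.72 ± 0.12 for B16F10-BrM against 482N1 (adjusted p = 1.21e-39), -2.42 ± 0.09 for E0771-BrM against 482N1 (adjusted p = 4.99e-29) and 3.31 ± 0.12 for E0771-BrM against B16F10-BrM (adjusted p = 2.69e-28). Ereg, which encodes epiregulin, shared the zeros of Areg and Btc in B16F10-BrM and had the opposite order in the other lines, with 155, 181 and 143 counts in 482N1 and 276, 284 and 309 in E0771-BrM. It was higher in E0771-BrM by 0.84 ± 0.13 on the log2 scale (adjusted p = 1.69e-07). It was at least 174-fold lower in B16F10-BrM than in 482N1 (adjusted p = 4.86e-25) and at least 313-fold higher in E0771-BrM than in B16F10-BrM (adjusted p = 2.62e-28).

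So the 4 measured ligands of a list of 11 were all lower in B16F10-BrM than in 482N1, where 39.9% of all genes were called lower. In E0771-BrM against 482N1, 3 were lower and 1 higher, with 40.4% of all genes called lower and 37.7% higher. In E0771-BrM against B16F10-BrM, 4 of 4 were higher, with 37.2% of all genes called higher. The median log2 fold change of the ligands, with zeros at their bounds, was -8.39, -1.53 and 6.34 in these comparisons, and that of all genes -0.04, -0.04 and 0.02. A count of 0 in all B16F10-BrM libraries with reads in all 6 others was found for 184 genes, 1.67% of those tested. The mix of ligands differed too. The ratio of Btc to Areg counts was 1.5 to 1.58 in the libraries of 482N1 and 0.029 to 0.0841 in those of E0771-BrM. That of Ereg to Areg was 0.26 to 0.288 and 0.688 to 0.823. These ratios are not corrected for exon length and serve only to compare lines. Per kb of exon, Areg was above Btc in 482N1, at 61.1 against 39.7 CPM.

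**Figure D1:**
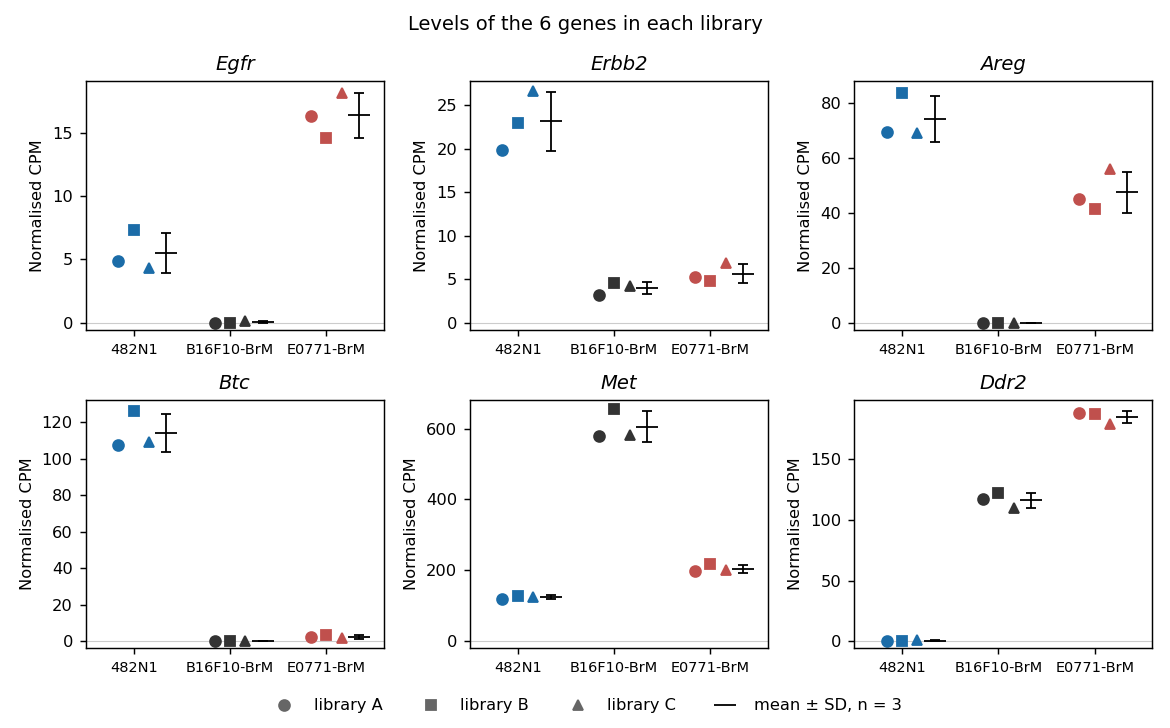
Each panel plots 1 gene, with normalised CPM (counts scaled to library size) on a linear axis and 1 point per library, circles, squares and triangles for libraries A, B and C, and bars for the mean ± SD of 3 libraries. Areg and Btc lie at 0 in B16F10-BrM, Egfr is highest in E0771-BrM, Erbb2 in 482N1, Met in B16F10-BrM and Ddr2 in E0771-BrM.

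Egfr, the receptor that Areg, Btc, Hbegf and Ereg bind, was highest in E0771-BrM. Its counts were 129, 122 and 146 there, 38, 61 and 34 in 482N1, and 0, 0 and 1 in B16F10-BrM. The lines did not overlap, and library B of 482N1 was the highest of its line. The mean was 16.4 ± 1.78 CPM in E0771-BrM and 5.52 ± 1.61 in 482N1, a 2.96-fold difference (log2 fold change 1.56 ± 0.21, adjusted p = 3.6e-09). Over 20 alternatives the log2 difference lay between 0.99 and 1.83. The lowest value came from library B alone for both lines, which has no spread of its own between libraries. With 1 count in B16F10-BrM, the ratio to 482N1 was 145 with a 95% counting interval of 25.6 to 5779 (adjusted p = 7.31e-15), and the ratio of E0771-BrM to B16F10-BrM was 428 with an interval of 76.5 to 16960 (adjusted p = 1.8e-21).

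Erbb2 was highest in 482N1, with 154, 191 and 210 counts. It had 31, 36 and 36 counts in B16F10-BrM and 41, 40 and 55 in E0771-BrM. The 482N1 libraries were far above the other 6, and the other lines lay close together with no overlap in CPM (3.23 to 4.52 and 4.8 to 6.86). The mean was 23.2 ± 3.38 CPM in 482N1, 5.62 ± 1.09 in E0771-BrM and 3.98 ± 0.67 in B16F10-BrM. The log2 fold change from 482N1 was -2.55 ± 0.19 in B16F10-BrM (adjusted p = 1.51e-16) and -2.04 ± 0.19 in E0771-BrM (adjusted p = 6.82e-14). E0771-BrM was above B16F10-BrM by 0.51 ± 0.23 (adjusted p = 0.0457). That last call was lost in 9 of 20 alternatives, among them DESeq2 (adjusted p = 0.0602), limma-voom (0.0788), and leaving out library C of E0771-BrM (log2 0.34, adjusted p = 0.239) or library A of B16F10-BrM (log2 0.37, adjusted p = 0.196). Erbb2 overlaps Mien1 on the opposite strand, and the strand setting of the counting is not given in the sources used here. Mien1 had 67.7 ± 10.7 CPM in 482N1, 48.6 ± 3.54 in E0771-BrM and 76.7 ± 6.54 in B16F10-BrM, an order unlike that of Erbb2.

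From 482N1 to E0771-BrM, Egfr was thus higher and Erbb2 lower. The ratio of Erbb2 to Egfr counts, not corrected for exon length, was 3.13 to 6.18 in the libraries of 482N1 and 0.318 to 0.377 in those of E0771-BrM. Erbb3, a receptor with little kinase activity of its own that partners Erbb2, had 53, 94 and 70 counts in 482N1, 168, 85 and 140 in B16F10-BrM and 41, 30 and 30 in E0771-BrM. It was called higher in B16F10-BrM than in 482N1 (log2 0.72 ± 0.2, adjusted p = 0.00103) although libraries of the lines overlapped, and it was lowest in E0771-BrM (log2 -1.11 ± 0.24 against 482N1, adjusted p = 4.35e-05, and -1.83 ± 0.22 against B16F10-BrM, adjusted p = 5.01e-10). Of the EGF family receptors measured, Erbb3 had the most reads per length in B16F10-BrM, at 2.46 ± 0.607 CPM per kb of exon against 0.794 ± 0.134 for Erbb2 and 0.00355 for Egfr. Erbb4 was not analysed here.

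Met was read in every library of every line and was highest in B16F10-BrM. Its counts were 920, 1071 and 986 in 482N1, 5571, 5224 and 4990 in B16F10-BrM, and 1554, 1817 and 1603 in E0771-BrM. The 3 lines were well separated, and the spread within a line was small. The means were 124 ± 5.17, 606 ± 43.0 and 205 ± 11.3 CPM. Met was 4.88-fold higher in B16F10-BrM than in 482N1 (log2 fold change 2.29 ± 0.08, adjusted p = 1.03e-30), 1.65-fold higher in E0771-BrM than in 482N1 (0.72 ± 0.08, adjusted p = 4.65e-12) and 2.95-fold lower in E0771-BrM than in B16F10-BrM (-1.56 ± 0.07, adjusted p = 2.08e-24). The line with the highest Met was thus the line in which Areg and Btc had no reads and Egfr 1. Of 10 genes listed for the Met family, Met and Plau were measured. Plau, which encodes urokinase, a protease that can activate hepatocyte growth factor, had 9, 19 and 9 counts in 482N1, 6, 7 and 4 in B16F10-BrM and 207, 214 and 198 in E0771-BrM. Plau was higher in E0771-BrM by 4.04 ± 0.23 against 482N1 (adjusted p = 5.78e-21) and 5.26 ± 0.27 against B16F10-BrM (adjusted p = 3.95e-23), and lower in B16F10-BrM than in 482N1 by -1.23 ± 0.43 (adjusted p = 0.00862). Hgf, the ligand of Met, and its relative Mst1r were not analysed here.

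Ddr2 was close to absent from 482N1 and abundant in the other lines. Its counts were 3, 0 and 6 in 482N1, 1126, 974 and 942 in B16F10-BrM, and 1481, 1564 and 1435 in E0771-BrM. No library of 482N1 came near those of the other lines. The means were 0.383 ± 0.38, 116 ± 6.27 and 185 ± 5.13 CPM. Ddr2 was higher than in 482N1 by 8.22 ± 0.2 on the log2 scale in B16F10-BrM (adjusted p = 6.61e-36) and by 8.88 ± 0.19 in E0771-BrM (adjusted p = 7.31e-38), and higher in E0771-BrM than in B16F10-BrM by 0.67 ± 0.09 (adjusted p = 2.03e-09). At the Dct share, libraries A, B and C of 482N1 would hold 0.96, 0.0947 and 1 Ddr2 counts, below the 3 and 6 counted in A and C. At the lowest share of 6 transcripts abundant in B16F10-BrM they would hold 0.592, 0 and 0.767, and at the lowest of 5 abundant in E0771-BrM 1.16, 0 and 0. Other transcripts abundant in E0771-BrM had higher shares, such as Gap43 at 0.508% in library A, where the lowest was 0.081%. Lcp1 was at 0.368% in library C, where the lowest was 0%. The Ddr2 counts at these shares would be higher. The source of these few reads was not tested. Against library B alone, which had 0 Ddr2 counts, the level in E0771-BrM was at least 512-fold higher, and that in B16F10-BrM at least 322-fold higher. The noncoding gene that overlaps Ddr2 on the opposite strand was not analysed here.

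Ddr1, the other discoidin receptor and the one typical of epithelia, ran the other way. It had 997, 930 and 901 counts in 482N1, 493, 409 and 477 in B16F10-BrM, and 22, 20 and 19 in E0771-BrM. The log2 fold change was -1.16 ± 0.09 for B16F10-BrM against 482N1 (adjusted p = 3.42e-16), -5.54 ± 0.14 for E0771-BrM against 482N1 (adjusted p = 1.99e-35) and -4.38 ± 0.15 for E0771-BrM against B16F10-BrM (adjusted p = 4.25e-30). 482N1 thus had nearly only Ddr1, E0771-BrM mostly Ddr2, and B16F10-BrM both, with 13.5 ± 0.73 CPM per kb of Ddr2 and 12.9 ± 0.598 of Ddr1, a difference within the SDs. Col5a1, a chain of the fibrillar collagens that Ddr2 can bind, was at 15.9 ± 0.441 CPM in 482N1, 135 ± 10.6 in E0771-BrM and 9.83 ± 1.81 in B16F10-BrM. It was higher in E0771-BrM than in 482N1 by 3.09 ± 0.11 (adjusted p = 2.99e-29). Col1a2 had 1 count over the 482N1 libraries, 41 in B16F10-BrM and 3 in E0771-BrM.

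In all, 6 of 6 genes were called in each of the 3 comparisons, and for none did libraries of the lines compared overlap. Over all genes, 77.8% were called in B16F10-BrM against 482N1 (38% higher, 39.9% lower), 78.1% in E0771-BrM against 482N1 and 73.7% in E0771-BrM against B16F10-BrM (36.5% lower). Libraries did not overlap for 78.7%, 78.5% and 75.5% of genes in the same order, and 47.4% of genes were called in all 3 comparisons. A call for each gene is therefore no mark of these 6, and what the values show is the order and size: Egfr and Ddr2 were highest in E0771-BrM, Erbb2, Areg and Btc in 482N1, and Met in B16F10-BrM.

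Levels of different genes can be set against each other only per length. The measured EGF family ligands and receptors, Met, Ddr1 and Ddr2 were put in CPM per kb of exon (GENCODE M21 lengths). Receptors outside this set, such as Axl (mean 461 CPM in 482N1), were not put on this scale. Within the set, 482N1 was led by ligands: Hbegf at 137 ± 12.9, Areg at 61.1 ± 6.9 and Btc at 39.7 ± 3.6. The receptors of the set were lower than these ligands. Ddr1 was at 28.9 ± 2.21, Met at 18.2 ± 0.759, Erbb2 at 4.62 ± 0.674, Erbb3 at 1.5 ± 0.373, Egfr at 0.504 ± 0.147 and Ddr2 at 0.0445. Ereg (4.84 ± 0.443) and Erbb2 were neighbours that did not differ beyond their SDs. In E0771-BrM the order was Areg at 39.1 ± 6.23, Met at 30.1 ± 1.66, Hbegf at 25.7 ± 1.23, Ddr2 at 21.5 ± 0.597, Ereg at 8.69 ± 0.568, Egfr at 1.5 ± 0.163, Erbb2 at 1.12 ± 0.218 and Btc at 0.826 ± 0.339. There the SDs of Egfr and Erbb2 overlapped, as did those of Erbb2 and Btc. In B16F10-BrM, Met stood first at 89 ± 6.32, above Ddr2, and Hbegf at 2.6 ± 0.58 and Erbb3 were within their SDs of each other. Among 10844 genes with a length, Met was at the 93.4th percentile in B16F10-BrM, Areg at the 90.7th in 482N1, and Egfr at the 18.9th in E0771-BrM, where it was highest.

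**Figure D2:**
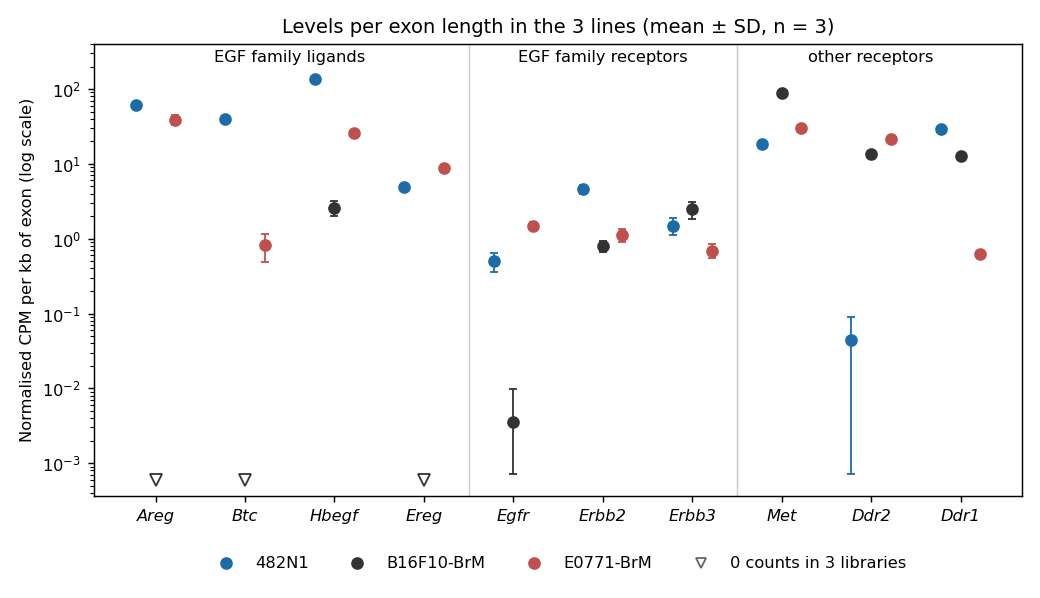
Normalised CPM per kb of exon on a log axis for the EGF family ligands, EGF family receptors and other receptors, as mean ± SD of 3 libraries per line, with open triangles for 0 counts in 3 libraries and lower error bars cut near the axis for Egfr in B16F10-BrM and Ddr2 in 482N1. Among the genes plotted, ligands led in 482N1 (Hbegf 137), Met led in B16F10-BrM (89), and Areg, Met, Hbegf and Ddr2 lay between 21.5 and 39.1 in E0771-BrM.

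The proteases that release these ligands, and their regulators, were measured for 9 of 10 genes. In B16F10-BrM against 482N1, 2 were higher, 6 lower and 1 not called, where 38% of all genes were higher and 39.9% lower. The same numbers were found in E0771-BrM against 482N1, with 37.7% and 40.4% of all genes. In E0771-BrM against B16F10-BrM 5 were higher, 2 lower and 2 not called, with 37.2% and 36.5% of all genes. Adam17, the main protease for Areg and Hbegf precursors, had 168, 207 and 147 counts in 482N1, 620, 554 and 526 in B16F10-BrM and 735, 772 and 793 in E0771-BrM. It was thus lowest in the line with the most Areg, Btc and Hbegf (log2 1.58 ± 0.11 for B16F10-BrM, adjusted p = 1.19e-18, and 2.12 ± 0.1 for E0771-BrM, adjusted p = 9.53e-24, against 482N1). Adam10, a protease that cuts the Btc precursor, was at 108 ± 11.8 CPM in 482N1, 81.7 ± 5.58 in E0771-BrM and 52.5 ± 4.78 in B16F10-BrM. Adam19 had 2 counts over the 482N1 libraries, 252 in B16F10-BrM and 370 in E0771-BrM. Timp3, a secreted inhibitor of ADAM proteases, had 265, 292 and 241 counts in 482N1, 180, 147 and 172 in B16F10-BrM and 0, 0 and 1 in E0771-BrM. Its ratio of 482N1 to E0771-BrM was 808, with a counting interval of 145 to 31930.

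Adaptors and other proteins that act close to the activated receptors, such as Src and Stat3, were measured for 15 of 15 genes. Their median log2 fold changes were -0.24, -0.09 and 0.1 in the 3 comparisons. In B16F10-BrM against 482N1, 4 were higher and 8 lower, where 38% of all genes were higher and 39.9% lower. For E0771-BrM against 482N1, 4 were higher and 7 lower (37.7% and 40.4% of all genes), and in E0771-BrM against B16F10-BrM 6 higher and 5 lower (37.2% and 36.5%). Grb2, the adaptor that links receptors to RAS activation, was at 136 ± 8.51, 124 ± 4.76 and 139 ± 12.4 CPM in 482N1, B16F10-BrM and E0771-BrM, and was not called in any comparison (adjusted p = 0.0734 or higher). Gab1, the docking protein on which Met relies, had 26, 24 and 48 counts in 482N1, 47, 30 and 51 in B16F10-BrM and 260, 261 and 282 in E0771-BrM. It was higher in E0771-BrM by 3.01 ± 0.19 against 482N1 (adjusted p = 5.37e-19), while the line with most Met had a Gab1 level not called different from 482N1 (log2 0.25 ± 0.24, adjusted p = 0.335). Nck2, an adaptor to the cytoskeleton, was at 40.4 ± 1.44 CPM in 482N1, 5.7 ± 0.904 in E0771-BrM and 6.56 ± 0.272 in B16F10-BrM.

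A list drawn up for receptor inhibitors, phosphatases and ubiquitin ligases (17 of 18 measured) had 12 genes called lower in B16F10-BrM than in 482N1. Against these, 4 were called higher, and the median was -1.69. Of all genes, 39.9% were lower and 38% higher there. Not every gene of the list restrains the receptors. It also holds the deubiquitinase Usp8 and the adaptor Sh3kbp1, both called lower in this comparison (log2 -0.97 and -2.11), so the counts describe the list only. In E0771-BrM against 482N1, 6 were lower, 5 higher and 6 not called, with 40.4% and 37.7% of all genes lower and higher. In E0771-BrM against B16F10-BrM 11 were higher, 2 lower and 4 not called, with 37.2% and 36.5% of all genes higher and lower. Errfi1, which binds the Egfr kinase domain and blocks it, was at 31.8 ± 2.41 CPM in 482N1, 20.9 ± 1.56 in E0771-BrM and 3.21 ± 0.159 in B16F10-BrM, with a log2 fold change of -3.3 ± 0.17 in B16F10-BrM against 482N1 (adjusted p = 3.83e-23). Lrig1, a membrane protein that promotes loss of EGF family receptors and of Met, had 61, 48 and 58 counts in 482N1, 1, 0 and 2 in B16F10-BrM and 79, 55 and 64 in E0771-BrM. Cbl, the ubiquitin ligase that marks Egfr and Met for degradation, ran the other way, at 19.8 ± 3.4 CPM in 482N1, 72 ± 3.21 in E0771-BrM and 67.6 ± 0.399 in B16F10-BrM (against 482N1, log2 1.86 ± 0.11 in E0771-BrM, adjusted p = 1.12e-20, and 1.77 ± 0.11 in B16F10-BrM, adjusted p = 6.05e-20). Its relative Cblb was at 16.5 ± 1.84 CPM in 482N1, 20.7 ± 2.09 in E0771-BrM and 2.95 ± 0.293 in B16F10-BrM. Ptprk, a receptor phosphatase that can act on Egfr, had 441, 461 and 393 counts in 482N1, 69, 76 and 72 in B16F10-BrM and 2, 0 and 0 in E0771-BrM.

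Inhibitors of RAS-ERK signalling further downstream (12 of 13 measured) had 11 genes called lower in B16F10-BrM than in 482N1, against 1 called higher (39.9% and 38% of all genes). In E0771-BrM against 482N1, 9 were lower and 3 higher (40.4% and 37.7%), and in E0771-BrM against B16F10-BrM 9 were higher, 1 lower and 2 not called (37.2% of all genes higher, 36.5% lower). Dusp5, a phosphatase of nuclear ERK, had 629, 847 and 676 counts in 482N1, 0, 0 and 1 in B16F10-BrM and 376, 376 and 443 in E0771-BrM. Dusp6, the cytoplasmic ERK phosphatase, had 2232, 2531 and 2183 counts in 482N1, 482, 325 and 412 in B16F10-BrM and 835, 661 and 745 in E0771-BrM, with a log2 fold change of -2.64 ± 0.09 in B16F10-BrM against 482N1 (adjusted p = 4.68e-28) and -1.64 ± 0.09 in E0771-BrM (adjusted p = 3e-21). Spry4, an inhibitor of receptor tyrosine kinase signalling, was at 6.29 ± 1.01 CPM in 482N1, 15.2 ± 2.99 in E0771-BrM and 0.46 ± 0.31 in B16F10-BrM.

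Transcripts that ERK signalling is known to raise (15 of 15 measured, of which Dusp6, Spry2 and Spry4 are also in the list of inhibitors) had 14 genes called lower in B16F10-BrM than in 482N1, against 1 called higher (39.9% and 38% of all genes), with a median of -3.73. In E0771-BrM against 482N1, 10 were lower, 4 higher and 1 not called (40.4% of all genes lower, 37.7% higher), with a median of -0.62. In E0771-BrM against B16F10-BrM 12 were higher, 1 lower and 2 not called (37.2% of all genes higher, 36.5% lower), with a median of 2.7. Fosl1, a subunit of the AP-1 factor, had 482, 400 and 446 counts in 482N1, 0, 0 and 0 in B16F10-BrM and 1596, 1454 and 1466 in E0771-BrM. Fosl1 was higher in E0771-BrM than in 482N1 by 1.75 ± 0.09 (adjusted p = 1.35e-21) and at least 483-fold lower in B16F10-BrM than in 482N1. Emp1, a membrane protein, was at 571 ± 30.8 CPM in 482N1, 128 ± 6.54 in E0771-BrM and 6.89 ± 0.595 in B16F10-BrM. Etv4, an ETS factor, had 134, 161 and 136 counts in 482N1, 2, 3 and 1 in B16F10-BrM and 169, 200 and 168 in E0771-BrM. Egr1, an immediate early factor, was at 97.5 ± 3.24 CPM in 482N1 and is listed with 0 counts in every library of both other lines, unusual for a gene of growing cells. Egr1 was called lower in both against 482N1 and is among the 14 and 10 genes counted above and in their medians. How reads were assigned to genes is not given in the sources used here, so nothing further is read from the Egr1 zeros. The same limit holds for the zeros of Areg, Btc, Ereg and Fosl1. RNA levels alone give no activity of a receptor or of ERK.

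**Figure D3:**
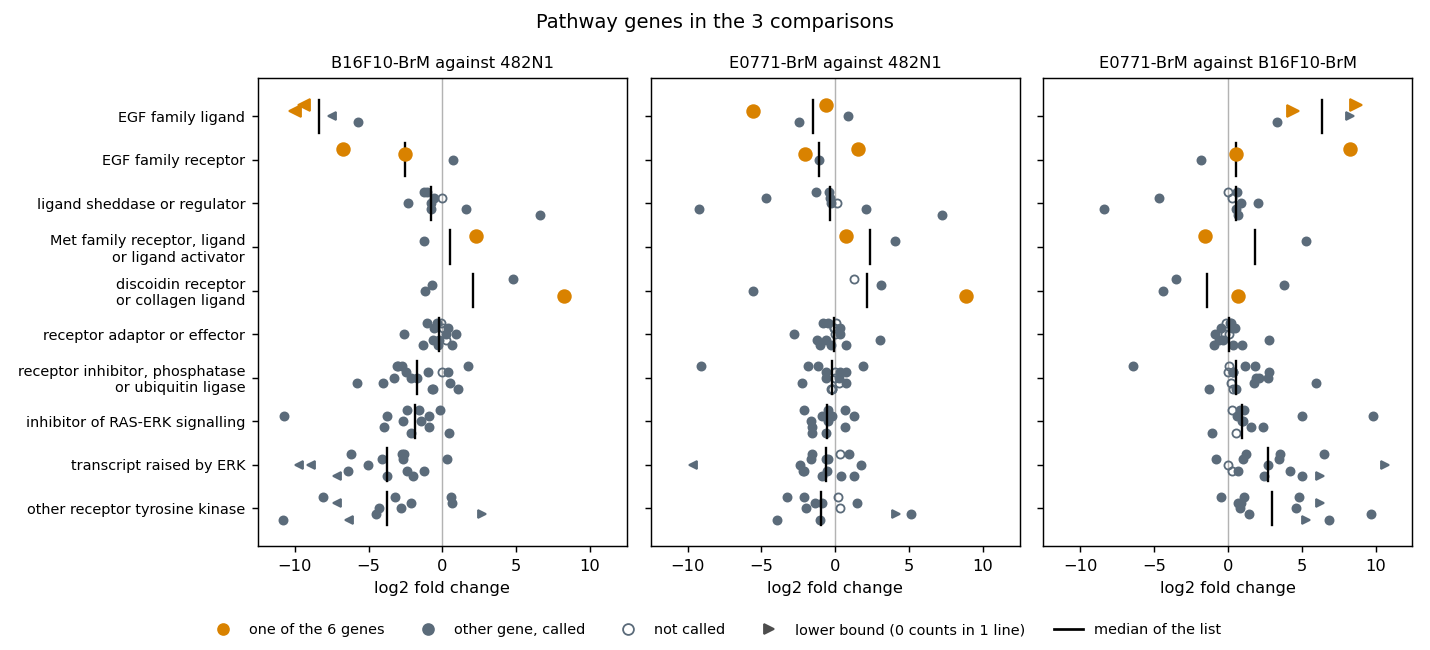
Log2 fold changes of the genes of each list (rows) in the 3 comparisons (panels), with orange for the 6 genes, filled points for called genes, open points for genes not called, triangles for lower bounds where a line had 0 counts, and a black bar for the list median with bounds. Points of genes with 1 to 3 counts in a line are fitted values, not bounds. In B16F10-BrM against 482N1, 14 of 15 transcripts raised by ERK and 11 of 12 inhibitors of RAS-ERK signalling lie left of 0 and were called lower. Of all genes, 39.9% were called lower there. Dusp6, Spry2 and Spry4 are in both lists, and the lists were chosen with earlier results of these data known.

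Over the lists described so far, without the 6 genes, 72 of 95 genes were measured. In B16F10-BrM against 482N1, 53 were lower, 14 higher and 5 not called, in E0771-BrM against 482N1 39 were lower, 20 higher and 13 not called, and in E0771-BrM against B16F10-BrM 45 were higher, 14 lower and 13 not called. Over all genes 39.9%, 40.4% and 36.5% were called lower in these comparisons, and 38%, 37.7% and 37.2% higher. The comparisons share libraries, so the counts are not independent of each other. The lists were chosen with earlier results of these data known, and their counts support no direction beyond the genes counted.

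The genes most like each of the 6 were taken by the smallest root mean square difference between log2 CPM profiles, each centred on its own mean over the 9 libraries, among 10335 genes. With 3 lines, this likeness is mostly the order of 3 levels, and between 6 (Erbb2) and 123 (Areg) genes had a Pearson correlation above 0.99 with a given gene. Areg was nearest to Dusp5 (difference 0.181), Csgalnact1 (0.219) and P3h4 (0.235), which had 0.0388, 0 and 0 CPM in B16F10-BrM. Btc was near to Col8a1 (0.263) and Angptl4 (0.392), with 80.9 to 83.6 CPM in 482N1, 0 in B16F10-BrM and 2.18 to 2.68 in E0771-BrM. Egfr was nearest to Pwwp3b (0.245), Nbl1 (0.274) and Apol7a (0.277), and Erbb2 to Dhx32 (0.173), Cnot7 (0.178) and Mex3d (0.206). By this difference Met had the closest neighbours, S1pr2 (0.0738), Klc1 (0.096) and Mtmr2 (0.113). Their Pearson correlations with Met, 0.993 to 0.997, were below those of the Areg neighbours with Areg, 0.998 to 0.999. The ranking of the 6 genes by closeness thus depends on the measure. S1pr2, a receptor for sphingosine 1-phosphate, was at 9.14 ± 0.67, 45.8 ± 1.41 and 15.5 ± 0.376 CPM in 482N1, B16F10-BrM and E0771-BrM. Ddr2 had the most distant neighbours by the same difference, Kcnab2 (0.581), Arhgap9 (0.623) and Xlr3c (0.664), each at 0.125 CPM or below in 482N1.

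**Figure D4:**
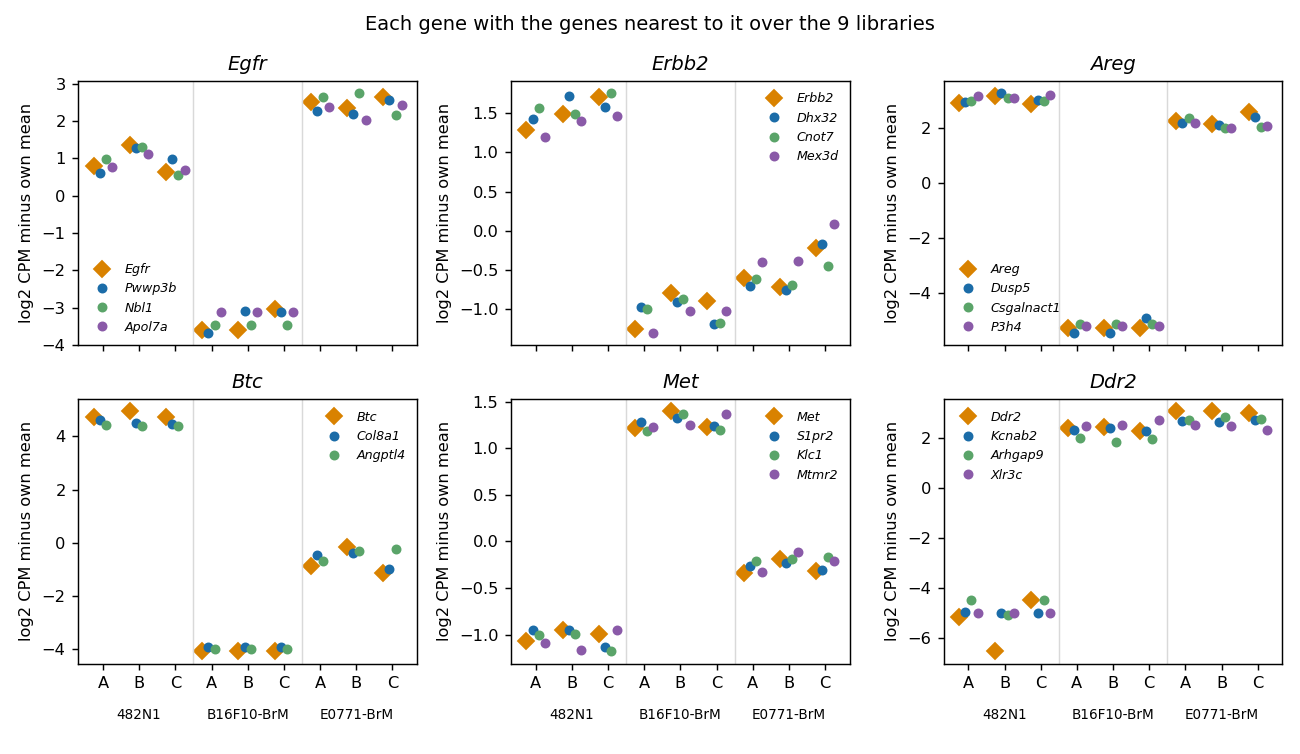
Each panel plots log2 CPM minus the gene's own mean (vertical axis) in the 9 libraries (horizontal axis, A, B and C of each line) for 1 of the 6 genes (diamonds) and the genes nearest to it (circles, 3 genes, or 2 for Btc). The points of Met and its neighbours nearly coincide, and Ddr2 lies apart from its neighbours in library B of 482N1, where it had 0 counts.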

How the data were processed

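Poly(A)-selected, stranded libraries of 3 untreated mouse tumour lines, 3 per line, were sequenced. The authors deposited 1 table of raw read counts per gene symbol, with no normalization. Per the submitters' processing notes, the tools were Cufflinks 2.2.1, TopHat2 2.0.10, SAMtools 0.1.19, Bowtie 1.0.0 and FastQC, and the build GRCm39. The counting tool, its strand setting, the annotation and the choice of the 11046 genes are not given in the sources used here. Reads of overlapping or near-identical genes may therefore be shared.

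The analysis used edgeR 4.0.16 in R 4.3.3: filterByExpr (11037 genes left), TMM, 1 coefficient per line over all 9 libraries, robust quasi-likelihood F tests (2-sided), and Benjamini-Hochberg adjusted p below 0.05 over all genes of a comparison. The common dispersion was 0.0059. Log2 fold changes are model coefficients, SE is the coefficient divided by the square root of F, and levels are TMM-normalised CPM, mean ± SD. A line with 0 counts gives a bound from a floor of 3 counts over the line, and 1 to 3 counts give a ratio with a 95% exact interval. Both cover counting error only. The procedure was tested on simulated data.

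The 6 genes, the lists and the transcripts used for traces were chosen with earlier results of these data known. Named genes were the 6, every ligand, receptor, Met family and discoidin gene measured, up to 4 genes per other list and comparison with the largest called change and no overlap between libraries, and the 3 most like each of the 6, of which 1 is not reported here. Of these a selection is printed. Adam10 and Grb2 were added after their values were seen. Promoters come from RefSeq (GRCm38.p6) and lengths from GENCODE M21 (10844 genes, 98.3%), earlier builds than GRCm39. Alternatives changed scaling, filter, test (DESeq2 1.42.0, limma-voom in limma 3.58.1, glmTreat), libraries, the library letter as a block, and the removal of 3 ribosomal RNA genes.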

Additional observations from a re-analysis of the deposited data

How the results depend on the processing

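Each of the 18 comparisons of the 6 genes was recomputed under 20 alternatives. Of 360 values, 348 kept their direction and side of the threshold, 12 kept their direction and lost the call, and none changed sign; 14 of the 18 kept their call in all. Of the 12, 9 concerned Erbb2 in E0771-BrM against B16F10-BrM, where the log2 fold change was 0.47 with upper-quartile factors, 0.51 with DESeq2, 0.5 with limma-voom, 0.49 with only the 2 lines compared, 0.28 with only library B of 482N1 and E0771-BrM, 0.51 against a 2-fold change, and 0.34 to 0.61 with 1 library left out. When tested against a 2-fold change with glmTreat, Areg (-0.64) and Met (0.72) in E0771-BrM against 482N1 and Ddr2 (0.67) in E0771-BrM against B16F10-BrM were not called, and over all genes 3477, 3342 and 2905 remained in B16F10-BrM against 482N1, E0771-BrM against 482N1 and E0771-BrM against B16F10-BrM. Deviations from the line means correlated at -0.009 to 0.114 between same-letter libraries and at -0.134 to 0.062 between others, over 8015 genes. With E0771-BrM every same-letter value was positive (0.056 to 0.114), but not every one was above 0.1, so the letters were not taken as a pairing. With the letter as a replicate block, 8595, 8623 and 8162 genes were called, against 8592, 8622 and 8131 without, and all 6 genes kept their calls. Depth limits Egfr, Areg and Btc in B16F10-BrM and Ddr2 in 482N1, whose fitted log2 values ranged widely (7.62 to 13 for Ddr2 in B16F10-BrM against 482N1). Of the genes most like each of the 6, those of Met were the same 3 with prior counts of 0.5 and 5, and by Pearson correlation 1 of 3 was shared for Egfr and Ddr2 and none for Erbb2, Areg and Met.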

Other observations

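Receptor tyrosine kinases outside the families above were measured for 12 of 41 listed genes. In B16F10-BrM against 482N1, 9 were lower and 3 higher, where 39.9% of all genes were lower and 38% higher. In E0771-BrM against 482N1 7 were lower, 3 higher and 2 not called, with 40.4% and 37.7% of all genes lower and higher. In E0771-BrM against B16F10-BrM 11 were higher and 1 lower, with 37.2% and 36.5% of all genes higher and lower. Axl, the receptor for Gas6, had 3828, 3803 and 3398 counts in 482N1, 11, 22 and 11 in B16F10-BrM and 435, 403 and 343 in E0771-BrM. Its log2 fold change was -8.08 ± 0.15 in B16F10-BrM (adjusted p = 1.06e-36) and -3.24 ± 0.1 in E0771-BrM (adjusted p = 3.81e-29) against 482N1. Fgfr1, a receptor for fibroblast growth factors, had 9, 10 and 10 counts in 482N1, 0, 0 and 1 in B16F10-BrM and 335, 359 and 372 in E0771-BrM. Epha2, an ephrin receptor, had 161, 118 and 109 counts in 482N1, 0, 0 and 0 in B16F10-BrM and 84, 59 and 71 in E0771-BrM. Pdgfrb, a receptor for platelet-derived growth factor, had 0 counts in 482N1, 21 over the B16F10-BrM libraries and 52 over those of E0771-BrM.

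Areg, Btc and Ereg lie next to each other on chromosome 5 in the RefSeq gene order (GRCm38.p6), which was looked up after their shared zeros were seen. The next measured gene on the Ereg side, Mthfd2l, a mitochondrial folate enzyme, had 90, 94 and 120 counts in 482N1, 2, 8 and 3 in B16F10-BrM and 164, 226 and 198 in E0771-BrM. Beyond it Cxcl1, a chemokine, had 16, 19 and 16, then 2, 3 and 0, then 350, 197 and 281 counts. On the Btc side the next measured gene, Rchy1, a ubiquitin ligase, had 143, 125 and 131 counts in 482N1, 207, 159 and 213 in B16F10-BrM and 343, 324 and 304 in E0771-BrM. Beyond Rchy1, Cdkl2, a protein kinase, had a mean of 15.3, 4.47 and 72.1 CPM and G3bp2, an RNA-binding protein, 144, 72.0 and 165 in 482N1, B16F10-BrM and E0771-BrM. Of all genes tested, 33.9% had their lowest mean in B16F10-BrM, and 1.67% had 0 counts in all its libraries with reads in all others. Neither share counts adjacent genes, and a shared cause at this locus was not tested. Cxcl2, Epgn and Parm1, which lie among them, were not analysed here.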
